A study of Mus musculus with 40 samples.

Results

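The cholesterol and fatty acid synthesis pathway was followed as a set of 31 genes in kidneys and aortas of mice fed SFD or HFD. The set holds 13 genes of sterol synthesis and transport, 14 genes of fatty acid and glycerolipid synthesis, and 4 genes that regulate both. They were named as a list, and their rows were taken from count tables of 55382 genes for kidneys and 55335 genes for aortas. All 31 were found in both tables and passed the filter on low counts in both tissues. The list holds genes with mapped counts only, since other genes of the pathway, Scap among them, lie on chromosomes whose genes had 0 counts in every library. Some genes of the pathway with counts, such as Cyp51, are also outside the list and are given later. Counts and medians by arm thus describe the listed genes, not the whole pathway.

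Both arms start from acetyl-CoA and are switched on by the SREBP transcription factors. When membrane cholesterol is low, the precursor of SREBP-2 leaves the endoplasmic reticulum and is cleaved, and the released factor raises the sterol enzymes. When sterols are plentiful, Insig proteins hold the precursor back. SREBP-1c, made from Srebf1, drives the fatty acid arm under insulin and liver X receptor control and is held down by polyunsaturated fat. Kidney tubule cells synthesize cholesterol, and the fat that surrounds kidney and aorta is itself a lipogenic tissue.

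The study asked what loss of the EGF receptor in endothelial cells does to vessels and kidneys, and whether it alters the response to HFD. Libraries were labelled as 8 groups of 5, WT or KO, under SFD or HFD, for aorta and kidney. SFD had 10% and HFD 60% of energy from fat. HFD was fed for 18 weeks from an age of 6 weeks, after a week of mixed food. KO mice carried EGFR flox/flox alleles on a C57BL/6 background and Tek-cre, in which the Tie2 promoter drives Cre in endothelium and, in part, in blood cells. Per the study's methods, WT animals carried the same Cre without floxed alleles, so all groups held Cre. The floxed fragment holds exon 1 of Egfr. Aortas were cleaned of fat and connective tissue, and RNA was made from whole organs, in which endothelial cells are a minority. In such bulk samples, fewer cells of a type and less RNA per cell cannot be told apart.

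Total counts were 19643033 to 48833447 per kidney library and 17520161 to 36452741 per aorta library. Egfr was at 49.3 to 64.5 FPM in WT SFD, 47.8 to 57.6 FPM in KO SFD, 21.7 to 48.5 FPM in WT HFD and 34.6 to 60.5 FPM in KO HFD kidneys. The lowest value, 21.7 FPM, was in the WT library a15, below every KO kidney. Egfr was not called between genotypes in either tissue, and the adjusted p lay between 0.916 and 1.00 by edgeR's quasi-likelihood test. Smooth muscle Myh11, Acta2 and Eln summed to at least 29045 FPM in aortas and at most 50.2 FPM in kidneys, and the 8 kidney markers to at least 10276 FPM in kidneys and at most 2.34 FPM in aortas. The smooth muscle markers Tagln and Cnn1 were at 0 in all libraries, as were all genes of chromosomes 9, X, Y and MT. The aortas R-1 (WT SFD) and R-12 (KO SFD) differed by less than the sampling noise, with a median chi-square over genes of 0.0277 where noise alone gives 0.455, and so did the kidneys a1 (KO HFD) and a12 (WT HFD), with 0.0269. Each pair joins a WT and a KO group. Separate mice would differ by at least the sampling noise, so 1 library may stand under both labels of a pair. Such a library would be on both sides of KO against WT, under SFD in aortas and under HFD in kidneys. It would draw those differences towards 0. Results were also computed without these 4 libraries. Nothing in the labels says whether libraries of 1 group were prepared together, so p values measure the spread between these libraries. Levels are FPM, fragments per 1000000 of a library size adjusted by TMM factors. A gene was called at an adjusted p under 0.05 over all genes tested. Whether groups overlap is given as a description only, since its frequency over all genes tested was not counted.

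Promoter sequences were taken from RefSeq (GRCm38.p6), which matched 23 of the 31 genes with 32 start sites, as 300 bases from 250 before to 50 after each start. Sqle, Fdps, Fdft1, Stard4, Scd1, Scd2, Fads1 and Dgat2 were not matched. The 250 bases before the start are printed for Idi1 and Hmgcs1 of the sterol arm, for Insig1 and for Fasn, which were called for diet in kidneys of at least 1 genotype. The RefSeq start of Idi1 lies inside the annotated span of the gene, which begins at 8885501. Both marked matches of Idi1 lie past that annotated start. The last part of the Insig1 stretch also lies inside its annotated span. Capitals mark TCACNCCAC, the letters of a sterol regulatory element, and CCAAT, the letters bound by NF-Y, on either strand (ATTGG is CCAAT on the other).
Idi1, chr13:8885356-8885605, plus strand: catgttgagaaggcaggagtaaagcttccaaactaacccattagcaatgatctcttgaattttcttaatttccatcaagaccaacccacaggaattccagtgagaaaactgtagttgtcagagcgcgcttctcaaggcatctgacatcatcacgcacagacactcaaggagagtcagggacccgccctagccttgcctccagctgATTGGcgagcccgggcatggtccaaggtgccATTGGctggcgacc
Hmgcs1, chr13:119690101-119690350, plus strand: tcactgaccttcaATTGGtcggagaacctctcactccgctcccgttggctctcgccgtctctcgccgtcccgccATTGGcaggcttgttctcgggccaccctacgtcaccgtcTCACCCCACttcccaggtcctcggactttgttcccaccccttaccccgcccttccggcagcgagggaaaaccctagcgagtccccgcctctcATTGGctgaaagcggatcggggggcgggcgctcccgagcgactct
Insig1, chr5:28071162-28071411, plus strand: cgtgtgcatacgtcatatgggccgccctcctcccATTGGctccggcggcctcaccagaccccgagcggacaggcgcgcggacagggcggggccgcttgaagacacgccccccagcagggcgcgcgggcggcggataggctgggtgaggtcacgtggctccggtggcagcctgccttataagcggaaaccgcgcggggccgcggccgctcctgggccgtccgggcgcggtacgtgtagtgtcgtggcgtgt
Fasn, chr11:120824548-120824797, minus strand: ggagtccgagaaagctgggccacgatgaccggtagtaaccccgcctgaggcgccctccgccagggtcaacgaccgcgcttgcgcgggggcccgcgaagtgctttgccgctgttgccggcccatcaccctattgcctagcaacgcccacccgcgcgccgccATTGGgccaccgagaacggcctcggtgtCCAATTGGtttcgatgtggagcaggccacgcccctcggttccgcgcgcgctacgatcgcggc
Hmgcs1 held the TCACNCCAC letters, starting 137 bases before its start site. They were in 1 of the 32 member windows (3.12%) and in 1.24% of the 32851 windows of all genes. CCAAT was in 19 of 32 member windows (59.4%) and in 37.4% of all windows. By gene it was found for 8 of 9 in the sterol arm, 4 of 4 regulators and 6 of 10 in the fatty acid arm. In Fasn the capitals CCAATTGG are a pair of matches that overlap. The E-box letters CACGTG were in 2 member windows (6.25%), those of Insig1 and Dhcr7, and in 7.15% of all. The GC-box letters GGGCGG were in 21 member windows (65.6%) and in 35.7% of all.

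Of the 13 sterol genes, 4 fell under HFD in WT kidneys and 3 in KO kidneys, with Idi1, Sqle and Dhcr7 in both. Of the 31 genes, 7 were lower and 0 higher under HFD in WT kidneys. In KO kidneys 6 were lower and 0 higher. Over all 15943 genes tested, 6.71% were called in WT kidneys (3.68% lower, 3.03% higher) and 6.34% in KO kidneys (3.18% lower, 3.16% higher). Idi1, Sqle, Dhcr7 and Acacb were called in both. Hmgcs1, Fasn and Lpin1 were called in WT, and Insig1 and Fads1 in KO; none of these 5 was called in the test of the interaction between diet and genotype. Called or not, 27 of 31 log2 fold changes were below 0 in WT and 24 of 31 in KO. Signs of genes that share regulators are not independent. The share of all genes below 0 was not counted, here or for the signs by arm in either tissue. With a minimum fold change of 1.5 and at least 1 group averaging above 5 FPM required as well, 2 genes remained in WT, Idi1 and Fasn, and 3 in KO, Idi1, Sqle and Insig1 (background 2.18% and 2.16%). Without the near-identical libraries 6 genes were lower in WT, where Fads2 joined and Acacb and Lpin1 dropped out, and 5 in KO, where Insig1 dropped out.

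**Figure D1:**
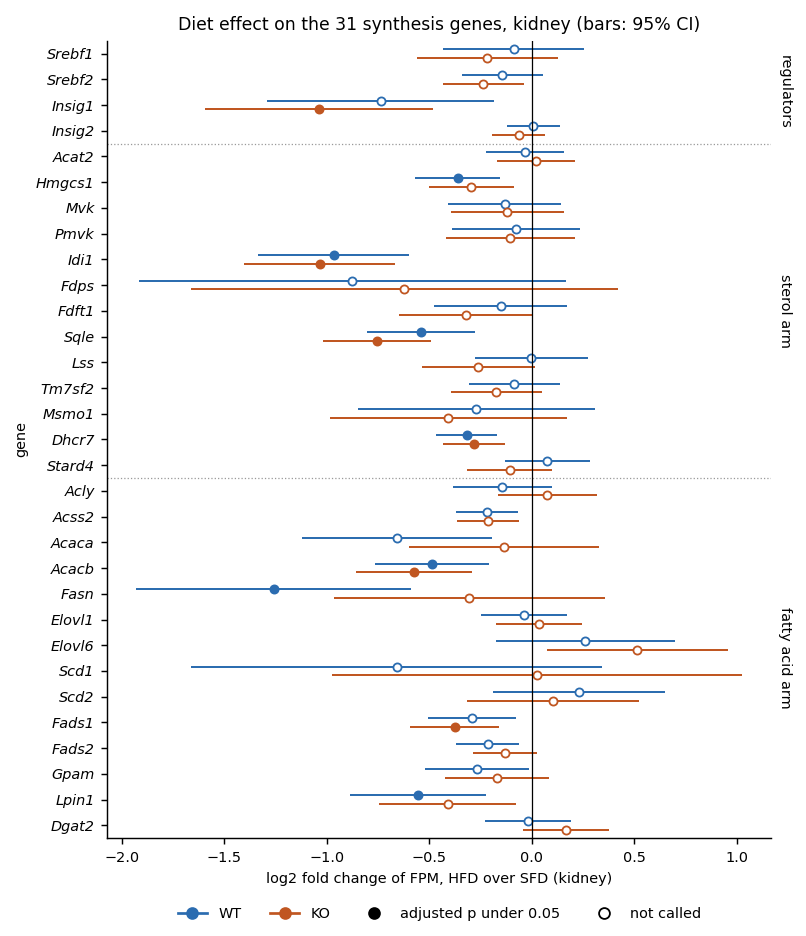
Log2 fold change of FPM, HFD over SFD, with 95% confidence interval for each of the 31 genes in WT (blue) and KO (orange) kidneys, 5 libraries a group. Filled points are called at an adjusted p under 0.05, and all of them, 7 in WT and 6 in KO, lie left of 0.

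Of the 4 regulators, 0 were called in WT kidneys and 1, Insig1, in KO kidneys. Srebf2, which encodes SREBP-2, was at 85.4, 91.2, 101, 107 and 125 FPM in WT SFD kidneys. It was at 83.3, 90.7, 91.7, 95.7 and 100.1 FPM in WT HFD kidneys, and the groups overlapped. In KO it was at 103, 104, 110.3, 114 and 131 FPM under SFD. Under HFD it was at 84.4, 96.02, 96.2, 99.7 and 102 FPM, below every SFD library. Neither difference passed the test, with log2 fold changes of -0.15 (95% CI -0.34 to 0.048, adjusted p = 0.417) in WT and -0.24 (95% CI -0.43 to -0.043, adjusted p = 0.151) in KO by edgeR. Srebf1, the source of SREBP-1, was at 25.7, 34.7, 48.4, 51.3 and 59.7 FPM in WT SFD kidneys. It was at 34.02, 41.9, 42.8, 43.6 and 44.3 FPM in WT HFD kidneys and overlapped, with a log2 fold change of -0.089 (95% CI -0.43 to 0.25, adjusted p = 0.818). In KO it ranged from 43.3 to 65.7 FPM and from 41.9 to 49.3 FPM, a log2 fold change of -0.22 (95% CI -0.56 to 0.12, adjusted p = 0.499).

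Insig2, the second retention protein, is made in several tissues without SREBP control. It was at 44.6, 46.5, 48.00, 48.7 and 50.1 FPM in WT SFD kidneys. It was at 46.2, 46.7, 46.8, 49.4 and 49.7 FPM in WT HFD kidneys. These groups overlapped, and the log2 fold change was 0.0062 (95% CI -0.12 to 0.13, adjusted p = 0.970). In KO it ranged from 43.6 to 51.4 FPM under SFD and from 43.6 to 48.2 FPM under HFD, a log2 fold change of -0.064 (95% CI -0.19 to 0.060, adjusted p = 0.604).

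Insig1, itself a target of SREBP and the brake on its processing, fell in KO kidneys. Its SFD libraries were at 63.6, 69.6, 78.8, 87.7 and 147 FPM. The HFD libraries were at 37.4, 37.6, 41.8, 44.3 and 56.4 FPM. All KO SFD libraries lay above all KO HFD libraries, and one of them, a9, stood far above the rest. The log2 fold change was -1.04 (95% CI -1.59 to -0.49, adjusted p = 0.0209). Leaving out a2, a4 or a9 alone ended the call, with the value at -0.99, -0.98 and -0.78 and adjusted p values of 0.0569, 0.0613 and 0.0707. Without the near-identical libraries it was -1.02 (adjusted p = 0.0575), no longer a call. In WT the SFD libraries were at 44.1, 44.9, 59.8, 62.99 and 123 FPM. The HFD libraries were at 30.6, 36.2, 41.5, 41.8 and 50.3 FPM and overlapped with them. The log2 fold change of -0.74 (95% CI -1.29 to -0.19, adjusted p = 0.110) missed the threshold, and the difference between genotypes was -0.30 (95% CI -1.07 to 0.47, adjusted p = 1.00).

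Idi1, isopentenyl-diphosphate isomerase, converts isopentenyl to dimethylallyl diphosphate, the building blocks of all isoprenoids, and had the lowest fold of the sterol arm. WT SFD kidneys were at 161, 169, 223, 234 and 255 FPM. WT HFD kidneys were at 67.4, 111, 114, 115 and 125 FPM. The groups did not overlap, and the log2 fold change was -0.97 (95% CI -1.33 to -0.60, adjusted p = 0.00151). KO SFD kidneys were at 180.1, 193, 240.1, 247 and 297 FPM. KO HFD kidneys were at 91.1, 98.9, 111, 120.5 and 143 FPM. Here too every SFD library lay above every HFD library, with a log2 fold change of -1.03 (95% CI -1.40 to -0.67, adjusted p = 0.000796). The gene (GRCm38, chr13:8885501-8892451) has a processed pseudogene, Gm13502, whose 684 bases are identical to its transcript. Gm13502 was at 20.9 ± 7.18 FPM under SFD and 10.5 ± 3.04 FPM under HFD in WT kidneys, and fell by 1.00 on the log2 scale (adjusted p = 0.0220) in WT and by 1.02 (adjusted p = 0.0197) in KO. Reads of the shared bases cannot be assigned to either of them, so the split between them is uncertain.

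Sqle, squalene epoxidase, catalyses the first oxygen-dependent step of sterol synthesis. WT SFD kidneys were at 65.6, 68.3, 69.9, 85.4 and 104 FPM. WT HFD kidneys were at 46.1, 52.2, 54.1, 56.9 and 60.8 FPM. The groups were separate, with a log2 fold change of -0.54 (95% CI -0.80 to -0.28, adjusted p = 0.00971). KO SFD kidneys were at 80.2, 86.1, 87.8, 91.8 and 121 FPM. KO HFD kidneys were at 51.2, 52.4, 53.9, 57.9 and 61.1 FPM. They were also separate, with a log2 fold change of -0.76 (95% CI -1.01 to -0.50, adjusted p = 0.000628). Idi1 and Sqle passed the test in both genotypes in every alternative fit computed, the left-out libraries included, with log2 fold changes up to -0.84 for Idi1 and -0.42 for Sqle.

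Dhcr7, the reductase that makes cholesterol from 7-dehydrocholesterol, had a small and even difference. It was at 22.2, 22.6, 23.4, 24.3 and 24.4 FPM in WT SFD kidneys. It was at 16.6, 18.6, 18.7, 19.8 and 20.05 FPM in WT HFD kidneys. No WT libraries overlapped, and the log2 fold change was -0.32 (95% CI -0.46 to -0.17, adjusted p = 0.00678). In KO kidneys it was at 22.7, 22.9, 24.9, 24.95 and 26.1 FPM under SFD. Under HFD it was at 18.6, 18.8, 20.1, 20.2 and 22.2 FPM, again without overlap, a log2 fold change of -0.28 (95% CI -0.43 to -0.14, adjusted p = 0.0152). Leaving out a4 or a6 alone ended the call, with the KO value at -0.25 and -0.26 and adjusted p values of 0.0648 and 0.0503. Hmgcs1, HMG-CoA synthase of the cytosol, was the most abundant member per kilobase of exon in kidney. It was at 535, 549, 562, 589 and 703 FPM in WT SFD kidneys. It was at 419, 421, 473, 484 and 488 FPM in WT HFD kidneys. These groups were apart, with a log2 fold change of -0.36 (95% CI -0.56 to -0.16, adjusted p = 0.0260). Leaving out a11, a14 or a17 alone ended the call, with the value at -0.33, -0.33 and -0.29 and adjusted p values of 0.0740, 0.0816 and 0.0772. In KO it was at 516, 557, 559, 661 and 732 FPM under SFD. Under HFD it was at 443, 473, 489.5, 518 and 541 FPM. The KO groups overlapped, and -0.30 (95% CI -0.50 to -0.093, adjusted p = 0.0771) was not a call.

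**Figure D2:**
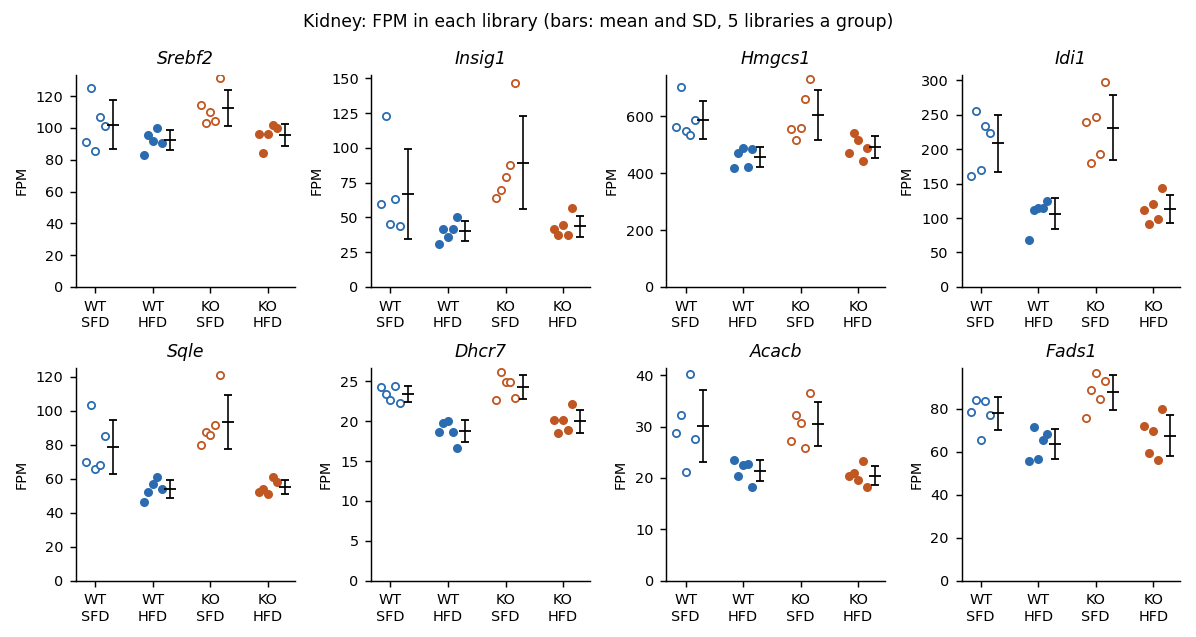
FPM of 8 members in every kidney library by genotype and diet (open points SFD, filled points HFD; the bar beside each group is mean and SD, n = 5). Idi1 and Sqle are separated by diet in WT and in KO, from 161 or more under SFD to 143 or less under HFD for Idi1; Insig1 shows a high SFD library in each genotype.

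The other 9 genes of the sterol arm were not called in either genotype. Their log2 fold changes ran from -0.88 for Fdps to 0.076 for Stard4 in WT, and from -0.62 for Fdps to 0.022 for Acat2 in KO. Fdps, farnesyl-diphosphate synthase, carried only 0.820 ± 0.809 FPM in WT SFD kidneys, and its processed pseudogene Gm3571, 98.9% identical over 1062 bases, averaged 1.91 FPM over all kidneys, so its count is uncertain. Msmo1, a sterol methyl oxidase, was at -0.27 (adjusted p = 0.638) in WT and -0.41 (adjusted p = 0.447) in KO, and Fdft1, squalene synthase, at -0.15 (adjusted p = 0.636) and -0.32 (adjusted p = 0.257). Lss, which closes the sterol rings, was at -0.0021 (adjusted p = 1.00) and -0.26 (adjusted p = 0.276). The kinases Mvk and Pmvk and the cholesterol carrier Stard4 lay between -0.13 and 0.076 in both genotypes. Acat2, cytosolic acetyl-CoA acetyltransferase, shares 97.7% of 1477 aligned bases with Acat3, which averaged 41.8 FPM over kidneys. Exons of Fdps, Fdft1, Hmgcs1, Tm7sf2 and Idi1 overlap those of other annotated genes over 26.7%, 18.3%, 12.1%, 12.1% and 9.22% of their length. For Fdft1, Hmgcs1 and Idi1 the other gene is on the opposite strand, which counts without a stated strand setting cannot separate. For Fdps and Tm7sf2 the other genes, Gm43738 and Vps51, are on the same strand, and Gm43738 is identical to Fdps over 929 bases.

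Fasn, fatty acid synthase, had the lowest fold of all 31 genes in WT kidneys (GRCm38, chr11:120805846-120824547). WT SFD kidneys were at 53.1, 68.6, 119, 156 and 266 FPM. WT HFD kidneys were at 48.9, 51.01, 55.5, 56.99 and 64.3 FPM. The groups overlapped at the lowest SFD library, a18, and the spread under SFD was wide, at 133 ± 85.1 FPM against 55.4 ± 6.00 FPM under HFD. The log2 fold change was -1.26 (95% CI -1.92 to -0.60, adjusted p = 0.0197). Leaving out a11 or a19 alone ended the call, with the value at -1.22 and -0.84 and adjusted p values of 0.0527 and 0.0508. KO SFD kidneys were at 60.4, 63.3, 69.97, 71.6 and 104 FPM. KO HFD kidneys were at 43.8, 51.1, 56.8, 73.3 and 73.5 FPM. They overlapped, and -0.31 (95% CI -0.96 to 0.35, adjusted p = 0.648) was not a call. The difference of the diet effects between genotypes was 0.95 (95% CI 0.026 to 1.88, adjusted p = 1.00), with an unadjusted p of 0.0445.

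Among WT SFD kidneys, the 3 libraries with the highest Fasn also had the 3 highest scores of fat-cell markers, which were present in all kidneys. The WT SFD kidneys a16, a17 and a19 held 156, 119 and 266 FPM of Fasn, and their adipocyte scores, the mean log2(FPM + 1) of 12 fat-cell genes, were 3.59, 2.68 and 3.77, against 1.55 and 1.96 in a18 and a20. In other groups Fasn was at 73.5 FPM in a3 and 73.3 FPM in a4 of KO HFD and at 64.3 FPM in a13 of WT HFD, with scores of 4.04, 3.27 and 3.46. The score of a3 was above those of a16, a17 and a19, and the scores of a4 and a13 lay between those of a17 and a16. The part of fat cells in the WT result was not tested beyond the fits given here. The 12 markers summed to 79.2 to 339 FPM in WT SFD, 128 to 261 FPM in WT HFD, 87.1 to 168 FPM in KO SFD and 110.0 to 375 FPM in KO HFD kidneys. Among other markers, 0 of 5 endothelial, 0 of 7 lymphoid and 0 of 14 clock genes tested were called for diet in either genotype, and 1 of 8 kidney markers, Slc12a1, was lower in KO. Of the fat-cell markers 0 of 12 were called for diet in WT, and 1 of 12, Lep, was higher under HFD in KO. Lep had 0 counts in 2 WT SFD and 3 KO SFD kidneys, Adig in 1 WT HFD and 1 KO SFD kidney and Retn in 1 KO SFD kidney, while the other 9, Adipoq and Plin1 among them, were above 0 in all. Of the brown-fat list, 1 of 5 genes tested, Cidea, was lower under HFD in WT, where its SFD libraries were at 0 to 20.6 FPM. A fit without a16 and a19 was chosen after seeing the data. These libraries held the highest Fasn of their group, so its difference had to shrink without them. The log2 fold change of Fasn in WT was then -0.53 (adjusted p = 0.236) by edgeR. Acacb was at -0.34 (adjusted p = 0.199) and Dhcr7 at -0.28 (adjusted p = 0.0706), and 4 genes stayed called in WT: Idi1, Sqle, Hmgcs1 and Lpin1. With the adipocyte score as a covariate, also chosen after seeing the data, all 7 genes were called in WT, Fasn at -1.09 (adjusted p = 0.00754). In KO it also gave 6 calls, with Fads1 dropping out at -0.36 (adjusted p = 0.0859) and Scd1 joining at -1.12 (adjusted p = 0.0178). Idi1 in WT was at -1.02 (adjusted p = 0.00520) without a16 and a19.

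**Figure D3:**
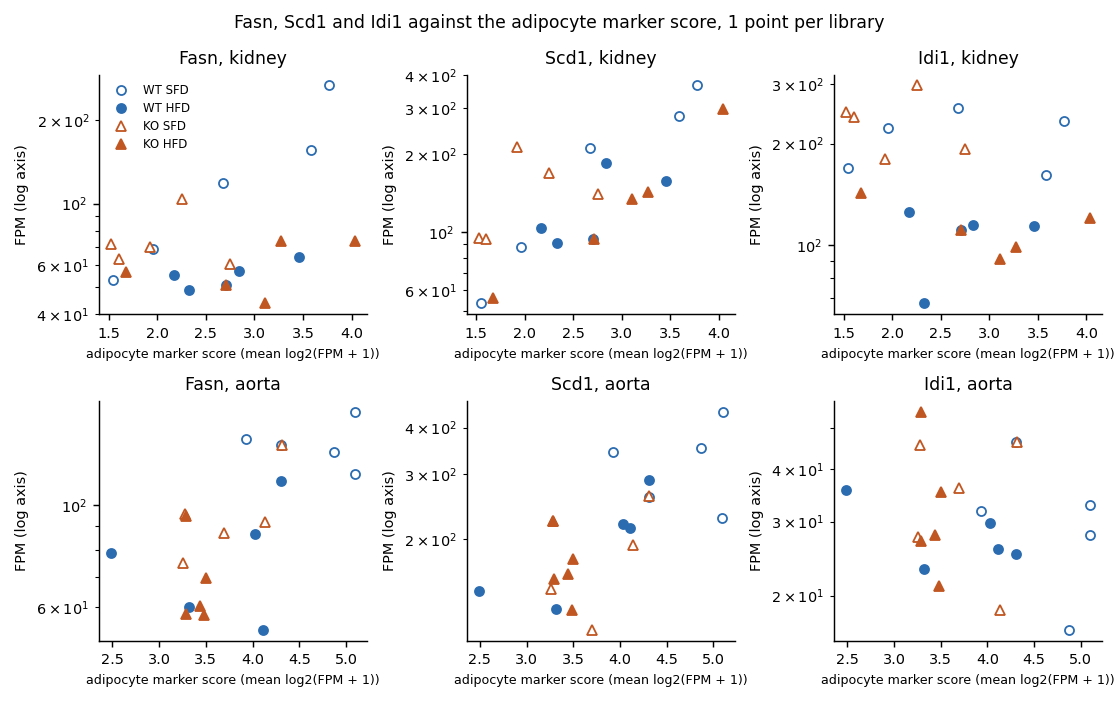
FPM of Fasn, Scd1 and Idi1 (log axis) against the adipocyte marker score, mean log2(FPM + 1) of 12 genes, with 1 point per library; kidneys above, aortas below, circles WT, triangles KO, filled HFD. In kidney the highest Fasn points, 156 and 266 FPM, are WT SFD libraries with scores of 3.59 and 3.77, whereas every SFD point of Idi1, at 161 FPM or more, lies above every HFD point, at 143 FPM or less.

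Acacb, the acetyl-CoA carboxylase of the mitochondrial surface, whose malonyl-CoA restrains fatty acid oxidation, fell in both genotypes. WT SFD kidneys were at 21.2, 27.7, 28.8, 32.3 and 40.2 FPM. WT HFD kidneys were at 18.2, 20.4, 22.4, 22.7 and 23.4 FPM. Only a18 of the SFD group lay within the HFD values, and the log2 fold change was -0.49 (95% CI -0.76 to -0.21, adjusted p = 0.0285). In KO it was at 25.9, 27.1, 30.7, 32.3 and 36.5 FPM under SFD. Under HFD it was at 18.2, 19.6, 20.4, 20.9 and 23.3 FPM, without overlap, a log2 fold change of -0.58 (95% CI -0.85 to -0.30, adjusted p = 0.00987). Leaving out a12, a13, a14, a15, a17 or a19 alone ended the call, with the WT value from -0.50 to -0.36 and adjusted p values of 0.0506 to 0.0835. Lpin1, a phosphatidate phosphatase of triglyceride synthesis, was at 94.9, 96.1, 99.4, 133 and 135 FPM in WT SFD kidneys. It was at 65.7, 69.6, 70.5, 76.2 and 97.9 FPM in WT HFD kidneys. Only a11 of the HFD group lay within the SFD values, and the log2 fold change was -0.56 (95% CI -0.88 to -0.23, adjusted p = 0.0360). Leaving out a12, a13, a14, a15, a17 or a20 alone ended the call, with the value from -0.55 to -0.48 and adjusted p values of 0.0692 to 0.100. In KO it was -0.41 (95% CI -0.74 to -0.083, adjusted p = 0.140). Fads1, the delta-5 desaturase of polyunsaturated fatty acids, was at 75.6, 84.7, 88.7, 93.2 and 96.9 FPM in KO SFD kidneys. It was at 56.4, 59.7, 69.8, 72.05 and 80.1 FPM in KO HFD kidneys. The groups overlapped there, and the log2 fold change was -0.38 (95% CI -0.59 to -0.17, adjusted p = 0.0283). Leaving out a2, a4, a6, a7 or a9 alone ended the call, with the value from -0.37 to -0.31 and adjusted p values of 0.0570 to 0.0996. In WT it was -0.29 (95% CI -0.50 to -0.081, adjusted p = 0.0971).

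The other 10 genes of the fatty acid arm were not called in kidney. Acaca, the cytosolic carboxylase, was at 17.8 to 63.1 FPM in WT SFD and 20.7 to 24.5 FPM in WT HFD kidneys, with its highest value again in a19 and a log2 fold change of -0.66 (adjusted p = 0.0839). Scd1, stearoyl-CoA desaturase, spread from 53.3 to 366 FPM within WT SFD kidneys, and its log2 fold change had a 95% CI of -1.66 to 0.34 in WT and -0.97 to 1.02 in KO. Elovl6, the elongase of saturated fatty acids, had values above 0 in both, 0.26 (adjusted p = 0.529) in WT and 0.51 (adjusted p = 0.170) in KO, where the SFD and HFD libraries did not overlap. In a fit of only the KO groups Elovl6 passed the test, at 0.52 (adjusted p = 0.0376). Scd2 was likewise above 0, at 0.23 (adjusted p = 0.573) in WT and 0.10 (adjusted p = 0.829) in KO. Acss2 and Fads2 were at -0.22 (adjusted p = 0.0673) and -0.22 (adjusted p = 0.0831) in WT. Acss2 makes acetyl-CoA from acetate, and Fads2 is the delta-6 desaturase. Acly, which makes cytosolic acetyl-CoA from citrate, was at -0.14 (adjusted p = 0.521) in WT and 0.076 (adjusted p = 0.771) in KO. Gpam, which starts glycerolipid synthesis, was at -0.27 (adjusted p = 0.216) and -0.17 (adjusted p = 0.460). Elovl1, an elongase of very long chains, was at -0.037 (adjusted p = 0.884) and 0.034 (adjusted p = 0.893), and Dgat2, which completes triglycerides, at -0.018 (adjusted p = 0.945) and 0.17 (adjusted p = 0.379).

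Set side by side, the median log2 fold change under HFD in WT kidneys was -0.15 for the 13 sterol genes, with 4 lower calls, and -0.24 for the 14 fatty acid genes, with 3 lower calls. In KO kidneys it was -0.28 for the sterol genes, with 3 lower calls, and -0.13 for the fatty acid genes, with 2. The median of all genes tested was -0.00027 in WT and -0.00060 in KO. Without a16 and a19 the WT medians were -0.19 for the sterol and -0.15 for the fatty acid genes, and without the near-identical libraries -0.25 and -0.26. In the sterol arm 12 of 13 values were below 0 in both genotypes. In the fatty acid arm 12 of 14 were below 0 in WT and 8 of 14 in KO.

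3 SFD kidneys, a17 of WT and a8 and a9 of KO, held 1729, 1911 and 1789 FPM of 8 immediate early genes summed, against 53.0 to 139 FPM in the other 17. In these libraries Insig1 was at 123, 87.7 and 147 FPM, Sqle at 104, 91.8 and 121 FPM and Hmgcs1 at 703, 661 and 732 FPM. For each gene these were the highest WT SFD value and the 2 highest KO SFD values. The same held for Stard4 and Fdps, which were not called for diet. It did not hold for Idi1 and Dhcr7, which were called in both genotypes. Idi1 was at 255, 193 and 297 FPM in a17, a8 and a9, and a7 (247) and a10 (240.1) lay above a8. Dhcr7 was at 23.4, 24.95 and 22.9 FPM in a17, a8 and a9, against 26.1 FPM in a6. All 8 immediate early genes had values below 0 for HFD in both genotypes and 0 were called, and their part in the results was not tested beyond the fits without these libraries. The fit without these libraries was chosen after seeing the data. In it 5 genes were called under HFD in WT, namely Idi1, Sqle, Hmgcs1, Dhcr7 and Fasn. In KO there were 3, namely Idi1, Sqle and Insig1. Sqle was then at -0.42 (adjusted p = 0.00920) in WT and -0.61 (adjusted p = 0.00163) in KO, and Insig1 at -0.69 (adjusted p = 0.0211) in KO. The median of the sterol arm was -0.073 in WT and -0.20 in KO without these libraries.

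Of 29 other genes of sterol handling listed, 21 were tested in kidney, and 4 were lower under HFD in WT and 4 in KO, with 1 higher in KO. Of all genes tested 3.68% were lower in WT, and in KO 3.18% were lower and 3.16% higher. The list was chosen with earlier results of these data known. Cyp51, lanosterol demethylase, was at 275 to 354 FPM under SFD and 146 to 235 FPM under HFD in WT. The diets did not overlap there, and the log2 fold change was -0.69 (adjusted p = 0.00105) in WT and -0.76 (adjusted p = 0.000451) in KO. Cyp7b1, an oxysterol hydroxylase, was lower in both, at -0.83 (adjusted p = 0.0211) in WT and -1.04 (adjusted p = 0.00456) in KO. Npc2, which moves cholesterol out of lysosomes, was higher in KO at 0.38 (adjusted p = 0.0450).

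Of 36 other fatty acid genes, 27 were tested in kidney. In WT 4 were lower and 2 higher, and in KO 1 was lower and 3 were higher. Of all genes tested 3.68% were lower and 3.03% higher in WT, and 3.18% and 3.16% in KO. This list too was chosen with earlier results known. Fads3 was lower in WT (-0.45, adjusted p = 0.000263) and in KO (-0.38, adjusted p = 0.00115). Mogat2, a monoacylglycerol acyltransferase of triglyceride synthesis, was higher in both, from 26.8 ± 9.69 FPM to 50.8 ± 8.87 FPM in WT (0.93, adjusted p = 0.00777) and at 1.15 (adjusted p = 0.00132) in KO. Elovl2, an elongase of polyunsaturated fatty acids, was higher in KO (0.63, adjusted p = 0.00734), and Gpat3, a glycerol-phosphate acyltransferase, in WT (0.92, adjusted p = 0.0423). Thrsp, a lipogenic gene of fat and liver, was lower in WT (-2.40, adjusted p = 0.0463), where its SFD libraries ranged over 2.01 to 63.9 FPM with the highest value in a19. Agpat3 was also lower in WT (-0.23, adjusted p = 0.00887). In aortas 0 genes of either list were called for diet, where 0.0132% of all genes were in WT and 0% in KO.

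No member was called between the genotypes. Of the 31 genes, 0 were called for KO against WT under SFD, under HFD or for the interaction in kidneys or aortas. The background was 0% in each of these comparisons by edgeR, with 2.67%, 3.42% and 1.79% of kidney genes and 2.28%, 5.85% and 0.84% of aorta genes at an unadjusted p under 0.05. DESeq2's Wald test also called 0 members. At an unadjusted p under 0.05, 3 members lay lower in KO than in WT SFD kidneys, namely Fasn at -0.85 (95% CI -1.50 to -0.19), Acaca at -0.50 (-0.96 to -0.044) and Lpin1 at -0.34 (-0.66 to -0.010). All 12 fat-cell markers had log2 fold changes below 0 in the same comparison, with 0 called and a median of -1.48, and their part in these 3 values was not tested. For the sterol arm in SFD kidneys 13 of 13 values were above 0 in KO, from 0.017 to 0.34, with 0 at an unadjusted p under 0.05. These genes share regulators, so their signs are not independent, and the share of all genes above 0 was not counted. The KO SFD group held a8 and a9 and the WT SFD group a17, the kidneys high in immediate early genes. The sterol arm mean log2(FPM + 1) was 5.68 in a9, against 5.33 to 5.42 in the other KO SFD kidneys. In a17 it was 5.61, against 5.15 to 5.29 in the other WT SFD kidneys. Intervals of the interaction were narrow for some members, such as -0.17 to 0.24 for Dhcr7 and -0.22 to 0.35 for Hmgcs1, and wide for others, such as -0.72 to 2.09 for Scd1.

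In aortas no member passed the threshold for HFD. In WT aortas 0 were called, where 0.0132% of the 15122 genes tested were, and in KO aortas 0 were called, where 0% were. With the fold change and FPM also required the background in WT was 0.00661%. An unadjusted p under 0.05 was reached by 3 members in WT and 2 in KO, against 2.61% and 4.56% of all genes, and DESeq2's Wald test called 0. Fasn had the smallest p. It was at 117, 130.4, 135, 139 and 159.6 FPM in WT SFD aortas. It was at 53.7, 60.2, 78.9, 86.4 and 113 FPM in WT HFD aortas. These groups did not overlap, and the log2 fold change was -0.80 (95% CI -1.20 to -0.39, adjusted p = 0.755). KO aortas were at 74.9 to 135 FPM under SFD and 57.9 to 94.6 FPM under HFD, and -0.51 (95% CI -0.91 to -0.10, adjusted p = 0.987) did not pass either. Scd1 was at 228, 261, 344, 352 and 441 FPM in WT SFD aortas. It was at 130.1, 145, 214, 220.3 and 289 FPM in WT HFD aortas. They overlapped, with a log2 fold change of -0.70 (95% CI -1.21 to -0.19, adjusted p = 1.00). Acss2 was at 18.8, 22.04, 23.6, 23.9 and 25.8 FPM under SFD. It was at 15.98, 16.5, 18.4, 19.4 and 19.4 FPM under HFD, with an overlap of the lowest SFD library and a log2 fold change of -0.35 (adjusted p = 1.00).

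**Figure D4:**
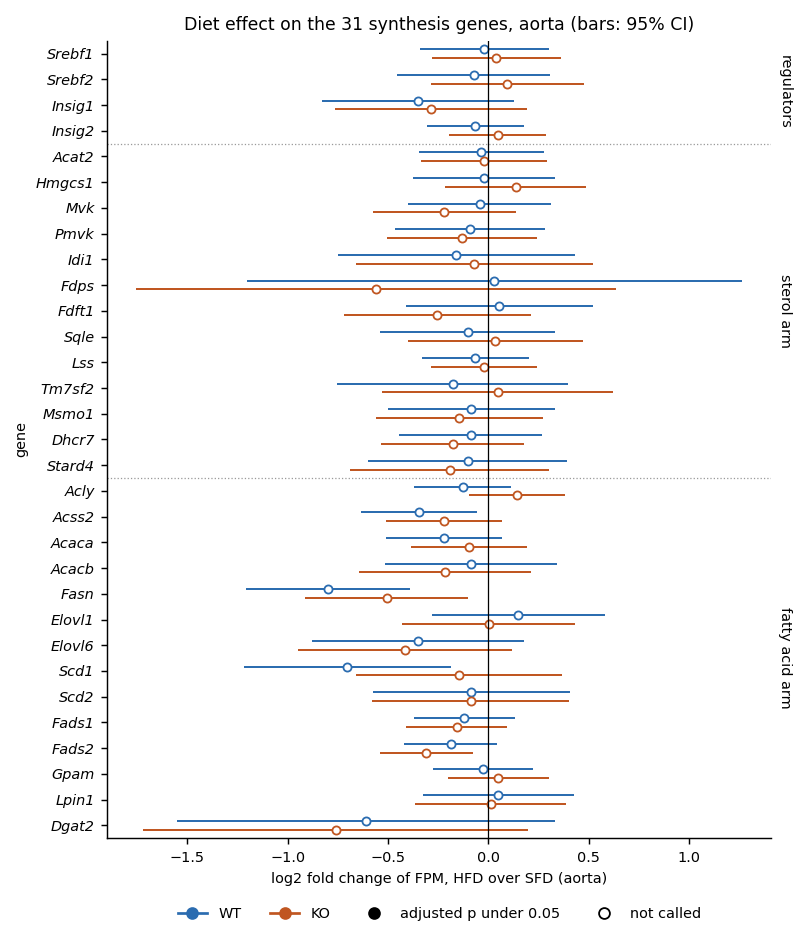
Log2 fold change of FPM, HFD over SFD, with 95% confidence interval for the 31 genes in WT (blue) and KO (orange) aortas, 5 libraries a group. All points are open, since 0 genes were called; Fasn in WT, at -0.80, has an interval left of 0 before adjustment.

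In the sterol arm of WT aortas the smallest p values were those of Tm7sf2, a sterol delta-14 reductase, Idi1 and Dhcr7. Tm7sf2 was at 5.14, 14.2, 14.8, 15.5 and 16.5 FPM under SFD. It was at 5.97, 11.3, 13.4, 13.4 and 14.4 FPM under HFD. Each group had 1 low library, and the log2 fold change was -0.18 (95% CI -0.75 to 0.39, adjusted p = 1.00). Idi1 was at 16.6, 27.9, 31.8, 32.9 and 46.3 FPM under SFD. It was at 23.1, 25.1, 25.8, 29.7 and 35.8 FPM under HFD, within the SFD values, a log2 fold change of -0.16 (95% CI -0.75 to 0.43, adjusted p = 1.00). Dhcr7 was at 6.61, 8.27, 8.39, 8.87 and 10.2 FPM under SFD. It was at 5.64, 7.11, 7.42, 8.16 and 11.5 FPM under HFD, a log2 fold change of -0.089 (95% CI -0.44 to 0.26, adjusted p = 1.00). In KO aortas these 3 genes were at 0.046, -0.070 and -0.18. Sqle was at 29.6 ± 5.05 FPM (SD, n = 5) under SFD and 27.6 ± 4.60 FPM under HFD in WT aortas.

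The regulators overlapped between diets in aortas of both genotypes. Insig1 was at 29.7, 45.7, 46.7, 53.3 and 70.4 FPM in WT SFD aortas. It was at 31.4, 31.96, 34.97, 36.5 and 58.2 FPM in WT HFD aortas. The groups overlapped, with the lowest SFD value below every HFD value, and the log2 fold change was -0.35 (95% CI -0.82 to 0.12, adjusted p = 1.00) in WT and -0.29 (95% CI -0.76 to 0.19, adjusted p = 0.987) in KO. Srebf2 was at 107, 114, 129, 129 and 168 FPM in WT SFD aortas. It was at 101, 107, 109, 117 and 179.8 FPM in WT HFD aortas, a log2 fold change of -0.074 (adjusted p = 1.00). In KO aortas 1 HFD library, R-20, was at 199 FPM where the others of its group were at 104 to 124 FPM, and the log2 fold change was 0.094 (adjusted p = 0.987). Srebf1 was at 78.7, 85.4, 88.6, 107 and 122 FPM in WT SFD aortas. It was at 71.7, 85.6, 90.9, 94.98 and 131 FPM in WT HFD aortas, a log2 fold change of -0.020 (adjusted p = 1.00). Insig2 was at 72.1, 74.03, 77.7, 83.7 and 87.4 FPM and at 68.1, 69.3, 70.4, 77.7 and 91.8 FPM in the same groups, a log2 fold change of -0.066 (adjusted p = 1.00). In KO aortas Srebf1 was at 0.039 (adjusted p = 0.988) and Insig2 at 0.047 (adjusted p = 0.987). The signs of the Srebf1, Srebf2 and Insig2 values in aorta turned in some alternative fits.

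The medians of the log2 fold changes in WT aortas were -0.085 for the sterol and -0.16 for the fatty acid arm, and in KO aortas -0.13 and -0.15. The median of all genes tested was 0.0085 in WT and -0.010 in KO aortas. Of the fatty acid genes 12 of 14 lay below 0 in WT and 10 of 14 in KO. Of the sterol genes it was 11 of 13 and 10 of 13. Without R-1, the WT SFD library near-identical to R-12, the sterol median in WT was 0.029.

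Fat-cell markers reached their highest levels in WT SFD aortas, and so did Fasn and Scd1. The adipocyte score was 3.93 to 5.10 in WT SFD, 2.49 to 4.31 in WT HFD, 3.26 to 4.31 in KO SFD and 3.29 to 3.50 in KO HFD aortas. The 12 markers summed to 785 to 1260.5 FPM in WT SFD and 677 to 939 FPM in WT HFD. Of these markers 10 of 12 had log2 fold changes below 0 under HFD in WT and 0 were called, and only Lep was at 0, in 1 KO SFD aorta. With the adipocyte score as a covariate, Fasn in WT was at -0.64 (adjusted p = 0.654) and Scd1 at -0.38 (adjusted p = 0.654) by edgeR. Other members moved away from 0 in that fit, such as Dhcr7 at -0.46 and Srebf2 at -0.40, and Tm7sf2 turned to 0.39. The WT medians were then -0.30 for the fatty acid arm, -0.095 for the sterol arm and -0.34 for the regulators. Between genotypes under SFD, Scd1 was at -0.79 (95% CI -1.30 to -0.28, unadjusted p = 0.00421) and Fasn at -0.49 (95% CI -0.89 to -0.091, unadjusted p = 0.0188), neither called, beside a median of -1.23 for the 12 markers. The part of fat cells in these values was not tested further.

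Kidneys and aortas of WT SFD mice were compared in a joint fit of 40 libraries in which tissue and count table cannot be told apart. Of the 31 genes 24 were called, 17 higher in kidney and 7 lower. By arm these were 8 and 2 of the sterol genes, 8 and 3 of the fatty acid genes, and 1 and 2 of the regulators. Over the 17514 genes tested 75.2% were called, 38.7% higher in kidney and 36.5% lower. Levels in this comparison are FPM with TMM factors of the joint fit, which differ from the FPM of the single tissues above. Acss2 was at 355, 355, 362, 423 and 446 FPM in kidneys and 17.8, 20.8, 21.7, 22.05 and 24.1 FPM in aortas. Dgat2 was at 197, 213, 213, 269.9 and 282 FPM in kidneys and 6.85, 9.88, 15.99, 16.6 and 18.2 FPM in aortas. Hmgcs1 was at 565, 598, 611, 620.0 and 752 FPM in kidneys and 42.7, 45.6, 52.8, 56.9 and 62.2 FPM in aortas. None of these overlapped. The largest folds towards kidney were those of Acss2, a log2 fold change of 4.19 (95% CI 3.94 to 4.44, adjusted p = 5.52e-27), Dgat2 at 4.12 (95% CI 3.40 to 4.84, adjusted p = 6.12e-13), and Hmgcs1 at 3.60 (95% CI 3.28 to 3.91, adjusted p = 6.2e-22). Scd2 was at 39.5, 66.2, 78.8, 94.3 and 106 FPM in kidneys and 111, 170.3, 181, 206 and 250.3 FPM in aortas. Srebf1 was at 27.9, 36.6, 52.6, 54.2 and 63.9 FPM in kidneys and 72.5, 80.4, 81.5, 99.8 and 115 FPM in aortas. For both genes every aorta lay above every kidney. Pmvk, phosphomevalonate kinase, was at 12.5, 14.001, 15.8, 17.9 and 20.04 FPM in kidneys and 19.1, 19.98, 28.5, 29.5 and 33.7 FPM in aortas, and the highest kidney overlapped with the lower aortas. The largest folds towards aorta were Scd2 at -1.26 (95% CI -1.71 to -0.80, adjusted p = 5.14e-06), Srebf1 at -0.93 (95% CI -1.27 to -0.60, adjusted p = 4.19e-06) and Pmvk at -0.71 (95% CI -1.05 to -0.36, adjusted p = 0.000323). Scd1 and Scd2 are paralogs with 95.5% identity over 623 aligned bases, so reads of that stretch may be split between them. Srebf2 was at -0.14 (adjusted p = 0.372). The 12 fat-cell markers summed to 743 to 1177 FPM in these aortas and 86.2 to 359 FPM in these kidneys, and their part in the differences between tissues was not tested.

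Levels of different genes within a tissue were compared per kilobase of exon in the same mice, with the TMM factors of that tissue. Exon length was that of all annotated exons of a gene merged, and the order depends on it. Acss2, with 10163 such bases, was at 362 FPM in kidney but at 35.6 FPM per kilobase. In kidney the highest levels of the 31 were Hmgcs1 at 128 ± 14.7 FPM per kilobase (SD, n = 5), Dgat2 at 71.02 ± 10.7, Acat2 at 62.9 ± 2.12, Fads2 at 60.02 ± 4.79 and Idi1 at 59.4 ± 11.7. Hmgcs1 stood apart from the next gene by more than their SDs, and the 4 after it did not stand apart from their neighbours. In aorta the order was Scd1 at 66.4 ± 17.1 FPM per kilobase, Scd2 at 36.1 ± 9.94, Elovl1 at 30.6 ± 5.15, Fads2 at 28.1 ± 2.98 and Fads1 at 26.1 ± 2.54. Scd1 stood apart from Scd2 by more than their SDs, and Scd2, Elovl1, Fads2 and Fads1 did not from their neighbours. The top 5 of kidney thus held 3 sterol genes, and the top 5 of aorta were all of the fatty acid arm, beside the higher fat-cell markers of aorta given above. Fdps had the lowest values in both, at 0.195 ± 0.192 and 0.174 ± 0.130. Its level is uncertain, since its near-identical copy Gm3571 averaged 1.91 FPM in kidneys and 3.23 FPM in aortas.

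**Figure D5:**
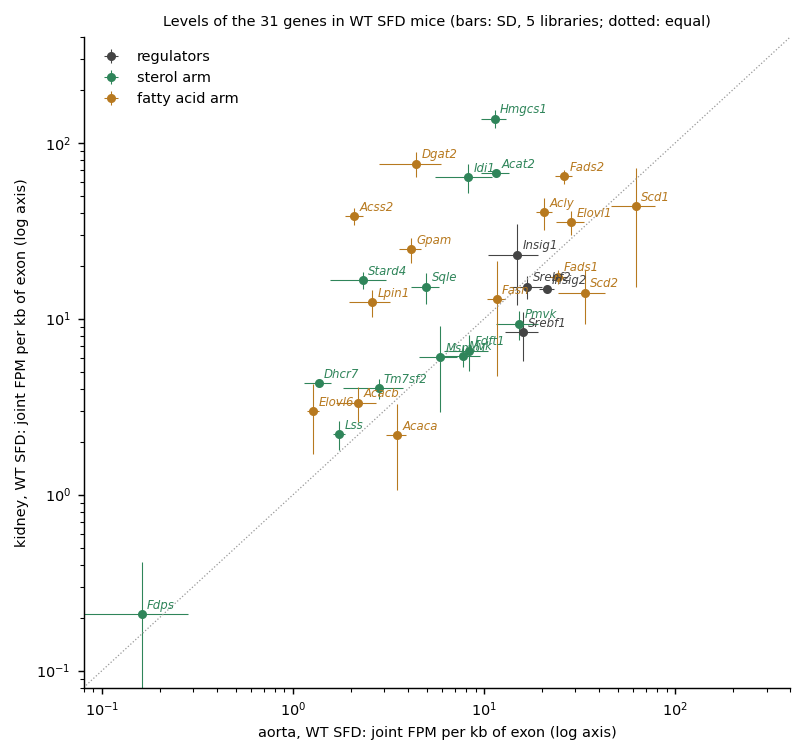
Mean FPM per kilobase of exon, with the TMM factors of the joint fit, of the 31 genes in kidneys (vertical, log axis) against aortas (horizontal, log axis) of WT SFD mice, with SD over 5 libraries; the dotted line marks equal levels. Hmgcs1, Acss2 and Dgat2 lie farthest above it, Scd2, Srebf1 and Pmvk below it.

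Whether HFD acted differently in kidney and aorta was tested in the joint fit. Of the 31 genes 0 were called in WT and 0 in KO, against 0.885% and 1.04% of all genes. An unadjusted p under 0.05 was reached by 2 members in WT and 5 in KO, against 10.6% and 12.4% of all genes, and DESeq2's Wald test called 0. The smallest p in KO was that of Sqle, with a difference of -0.80 (95% CI -1.30 to -0.31, adjusted p = 0.0973) between the log2 fold changes of kidney and aorta, followed by Idi1 at -0.98 (95% CI -1.66 to -0.30, adjusted p = 0.149). In WT these were -0.44 (95% CI -0.94 to 0.055, adjusted p = 0.556) for Sqle and -0.81 (95% CI -1.49 to -0.13, adjusted p = 0.332) for Idi1. For neither gene was a difference between the tissues shown by this test.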

How the data were processed

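RNA-seq was done on 20 aortas and 20 kidneys, with 5 libraries for each of 8 groups given by genotype, diet and organ in the labels. The authors sequenced poly(A)-enriched libraries as paired reads and deposited raw counts per gene. Per the labels, reads were mapped with HISAT2 (version 2.1.0) to mm10 and counted with featureCounts, whereas the study's methods name Tophat2; the strand setting and the handling of multiply mapped reads are not given in the sources used here. The counts held whole numbers without normalization, and genes of chromosomes 9, X, Y and MT and part of 8 were at 0 throughout.

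One model per tissue was fitted with edgeR 4.0.16 under R 4.3.3, using the filter filterByExpr, TMM factors and a robust quasi-likelihood fit; p values were adjusted by Benjamini-Hochberg over all genes tested. A joint fit of 40 libraries gave the comparisons of tissues. Under a stricter rule for diet, called genes also had to differ by more than 1.5-fold and to exceed 5 FPM on average in 1 of the groups. The biological coefficient of variation was 22.3% in kidneys, 29.0% in aortas and 26.4% jointly. Precision was limited for low genes such as Fdps. The steps were tested on simulated counts.

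The 31 genes and all lists (other sterol and fatty acid genes, fat-cell, brown-fat, clock, immediate early, endothelial, lymphoid, kidney and smooth muscle markers) were chosen with earlier results of these data known. Named with values in every library were the regulators, members called for diet in kidney, the 3 members of each arm with the smallest p in WT aortas, any member called for genotype (there was none), and the 3 with the largest fold in either direction between tissues; from the other lists, up to 5 called genes by p, and further genes by fold only. Alternatives were DESeq2 (1.42.0) and its size factors, the likelihood ratio test, other filters, no robust estimation, only the groups compared, clock or adipocyte scores as covariates, and fits without each library in turn, without the near-identical libraries, and, chosen after seeing the data, without a16 and a19 or without a8, a9 and a17, with the adipocyte score in kidneys and with the clock score in aortas. Similar transcripts were found with blastn (2.17.0) at 95% identity or more over at least 50% of the copy. Promoters were RefSeq sequences of GRCm38.p6, searched on both strands. Some genes of the other sterol list are counted but their values are not reported here.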

Additional observations from a re-analysis of the deposited data

Results flagged for a closer look

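Single libraries far from the other 4 of their group were looked for in the named members, the arm means and the marker scores, by Dixon's test at the 95% level. Of 184 tests 17 passed, where chance gives about 1 in 20, or 9.2. Values are FPM unless stated.

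In kidneys, the KO SFD library a9 stood high in Sqle (121), Insig1 (147), Fasn (104) and the mean of the sterol arm (5.68 as mean log2(FPM + 1)), and the WT SFD library a17 in Insig1 (123). Both are among the 3 kidneys with high immediate early genes. The WT HFD library a11 was low in Idi1 (67.4) and Srebf1 (34.0), and the KO HFD library a3 was low in Tm7sf2 (13.3).

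In aortas, the KO HFD library R-20 was high in Sqle (48.1), Srebf2 (199) and the mean of the fatty acid arm (5.73 as mean log2(FPM + 1)). R-10 of WT HFD was high in Srebf2 (179.8) and R-6 in Insig1 (58.2). R-5 of WT SFD was low in Tm7sf2 (5.14) and high in Lpin1 (37.7). R-14 of KO SFD was low in Srebf2 (108). R-16 of KO HFD had the lowest clock score of its group (-2.61).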

How the results depend on the processing

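Idi1 and Sqle passed the adjusted p threshold under HFD in both genotypes in every fit, but Sqle in WT, at -0.54, fell short of the fold change of the stricter rule. In WT kidneys 7 genes were called. The number was 2 with the fold change and FPM also required (Idi1 and Fasn), 3 without a filter on low counts, 4 in a fit of only the groups compared, 4 without a16 and a19, and 4 to 8 with 1 library left out (4 without a14 or without a17). In KO kidneys 6 genes were called. The number was 3 with the fold change and FPM required, 3 without a filter, 3 without a8, a9 and a17, and 3 to 6 with 1 library left out (3 without a4). The stricter rule and the fits with more genes or fewer libraries differ by construction, and no further cause was tested. DESeq2's Wald test called 10 and 8, and called Insig1 in WT at -0.74 (adjusted p = 0.0420). Kidney against aorta gave 22 to 25 with 1 library left out; the comparisons of genotype, interaction, aorta diet and tissue by diet gave 0 in every fit.

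Only values that were no calls turned sign, and the cause was not tested. In WT kidneys Srebf1 ranged from -0.22 to 0.049 with 1 library left out and was at 0.046 without a16 and a19 and 0.049 without a8, a9 and a17, and Insig2 ranged from -0.0039 to 0.027 and was at -0.000088 without a16 and a19. In WT aortas Tm7sf2 was at 0.39 with the adipocyte score, Idi1 at 0.030 without the near-identical libraries and at -0.32 to 0.030 with 1 library left out, and Dhcr7 at -0.26 to 0.013. There Srebf1 ranged from -0.17 to 0.080, Srebf2 from -0.25 to 0.038, and with the clock score Srebf1 was at 0.073, Srebf2 at 0.016 and Insig2 at 0.034. In KO aortas Srebf1 ranged from -0.050 to 0.099, Srebf2 from -0.11 to 0.17 and Insig2 from -0.031 to 0.12, and with the adipocyte score Srebf1 was at -0.052 and Srebf2 at -0.021.

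No paired analysis was possible because the groups share no replicate numbers. With 5 libraries a group, intervals for Fasn and Scd1 were broad, and the count of Fdps was low and uncertain beside its near-identical copies.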
